A study of Mus musculus with 17 samples.

Results

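The 10 genes described here are neural genes named as raised in the medium LIM, namely Six3, Six3os1, Pax6, Sox1, Pou4f2, Lmx1b, Foxd4, Nes, Ncam1 and Olig3, of the 47729 genes counted in polyadenylated RNA of mouse embryonic stem (ES) cells. All 10 symbols matched 1 Ensembl gene each. They were named because of their levels in LIM, so every comparison with LIM in the set with both cell lines is given as a description with no test. The data bore the name out for 9 of the 10. Olig3 was lower in LIM than in L2i and is described as the exception.

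LIM held LIF, 0.1 µM of the MEK inhibitor PD325901 and 2 µM of IWP2, which stops cells from secreting Wnt ligands. LFAI held LIF, 12 ng/ml FGF2, 20 ng/ml Activin A and 2 µM IWP2, and moves ES cells toward the primed state of the later epiblast. L2i, the naive medium in which all cells began, held LIF, 3 µM of the GSK3 inhibitor CHIR99021, which activates Wnt signalling inside the cell, and 0.1 µM PD325901. All media were serum-free N2B27 with LIF. In the set with both lines, LIM (4 passages for R1 and 6 for CGR8), LFAI for 35 h, LFAI for 4 days and L2i had 1 library of the ES cell line R1 and 1 of CGR8 (n = 2 per group). A time course of R1 cells, moved out of L2i for 1 to 4 days into LIM or LFAI, had 1 library per point beside 1 day 0 library in L2i. Its dishes were coated with gelatin and fetal calf serum instead of gelatin and a basement membrane extract, its sequencing protocol was another, and it was scaled apart. The groups differed in time in culture and in passages as well as in medium, which cannot be told apart, and LFAI at 35 h or 4 days was set against cells kept in LIM for passages. Each group rests on 1 culture per line.

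Neural fate is the course that early mouse ectoderm takes when signals for other fates are low, and Wnt signalling gives neural tissue a posterior character while its absence leaves forebrain and eye character. Six3, Pax6 and Sox1 are transcription factors of the early neural plate, eye field and forebrain, and FGF signalling through MEK and ERK takes part in leaving the naive state. Nes encodes nestin, an intermediate filament protein of neural progenitors, and Ncam1 a cell adhesion molecule of neural tissue, but both proteins are also made by other cell types.

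Of the 10 members, 7 encode transcription factors. Six3, a homeobox factor of the anterior neural plate and eye field, lies on the plus strand of chromosome 17 from 85613608 to 85629302 (GRCm38). Six3os1, a noncoding transcript, lies on the opposite strand from 85600651 to 85618398, and the genes share 4791 bases. The libraries were stranded, but the strand setting of the counting is not given in the sources used here, so reads of the shared stretch cannot be assigned with certainty to Six3 or to Six3os1. Pax6 (chromosome 2, 105668900 to 105697364, plus strand), Sox1 (chromosome 8, 12395295 to 12400126, plus strand, a single exon) and Foxd4 (chromosome 19, 24899236 to 24901197, minus strand, a single exon) overlap no other member. Lmx1b (chromosome 2, 33560965 to 33640511, minus strand) is a LIM-homeodomain factor of the midbrain-hindbrain boundary, limb and serotonergic neurons, and Pou4f2 (chromosome 8, 78433010 to 78436645, minus strand) is a POU factor of retinal ganglion cells. Olig3 (chromosome 10, 19356533 to 19358604, plus strand) is a bHLH factor of dorsal progenitors in hindbrain and spinal cord. Nes lies on chromosome 3 (87971078 to 87980451, plus strand) and Ncam1 on chromosome 9 (49502136 to 49798925, minus strand).

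The 250 bases before the start of Six3 and of both Pax6 starts are shown as the promoters of the anterior factors, those of Olig3 as the promoter of the exception, and those of Foxd4 because it holds the only motif found. Sequences are from RefSeq (GRCm38.p6), 5′ to 3′ on the gene's strand, in lower case, with a motif in capitals. RefSeq and GENCODE can place a gene's start differently: the RefSeq start of Six3 lies inside the GENCODE span given above.
Six3, chr17:85620584-85620833: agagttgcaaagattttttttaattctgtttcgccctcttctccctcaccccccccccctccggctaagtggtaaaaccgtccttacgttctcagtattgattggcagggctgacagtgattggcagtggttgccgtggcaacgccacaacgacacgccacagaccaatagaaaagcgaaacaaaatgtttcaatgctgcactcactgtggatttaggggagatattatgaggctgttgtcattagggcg
Pax6, first start, chr2:105668646-105668895: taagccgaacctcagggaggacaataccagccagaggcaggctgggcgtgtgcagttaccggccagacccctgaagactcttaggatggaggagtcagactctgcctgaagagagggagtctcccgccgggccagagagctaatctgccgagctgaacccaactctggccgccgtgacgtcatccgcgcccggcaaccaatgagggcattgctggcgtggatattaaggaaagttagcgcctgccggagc
Pax6, second start, chr2:105682213-105682462: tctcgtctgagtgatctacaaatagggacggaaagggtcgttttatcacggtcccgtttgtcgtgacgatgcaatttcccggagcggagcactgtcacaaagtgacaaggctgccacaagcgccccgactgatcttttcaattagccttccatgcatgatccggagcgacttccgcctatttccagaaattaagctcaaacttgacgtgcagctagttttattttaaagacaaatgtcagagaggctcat
Olig3, chr10:19356289-19356538: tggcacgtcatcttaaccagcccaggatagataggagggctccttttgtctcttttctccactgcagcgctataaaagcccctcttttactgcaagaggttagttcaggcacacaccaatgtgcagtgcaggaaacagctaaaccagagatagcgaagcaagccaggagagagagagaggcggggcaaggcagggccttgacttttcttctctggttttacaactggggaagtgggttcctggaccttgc
Foxd4, chr19:24901017-24901266, minus strand: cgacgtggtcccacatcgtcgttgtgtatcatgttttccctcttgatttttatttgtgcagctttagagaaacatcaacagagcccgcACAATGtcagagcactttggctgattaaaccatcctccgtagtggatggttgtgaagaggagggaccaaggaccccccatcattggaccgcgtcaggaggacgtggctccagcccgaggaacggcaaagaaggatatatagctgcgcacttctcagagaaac
Promoters of 9 members were in the table (10 starts, since Pax6 had 2; Ncam1 was missing). A TCF/LEF motif, CTTTGAT, which is bound by the factors that act on Wnt signals, was in none of these 10 stretches on either strand, and in 3.21% of all 32851 promoters. Nor did they hold TAATCC, an Otx type motif (6.25% of all promoters), or ATGCAAAT, the octamer (1.60%). ACAATG, a Sox type motif, was in 1 of the 10, that of Foxd4, and in 10.7% of all promoters. The motifs do not overlap one another in letters, and a match or its absence here describes these letters in this window only.

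Reads in genes numbered 15135012 to 22593805 per library in the set with both lines and 12889029 to 13667302 in the time course, and 47.7 to 51.9% of the reads were in no gene. ES cell markers were present in every group: all 8 of the list averaged 5 CPM or more in each (CPM is a gene's reads over all gene reads of its library, on a scale common to the libraries of a set), and their summed level was 3280 to 4139 CPM in LIM and 5711 to 6803 CPM in L2i. Axin2, a feedback target of Wnt signalling, was at 15.8 and 17.8 CPM in LIM and 99.2 and 151 CPM in L2i. The library labelled LFAI day 1 goes against its label and is called by that name throughout. It correlated with LIM days 1 and 2 at 0.991 each over 14871 genes, with 414 and 372 genes at least 2-fold apart, and with LFAI day 2 at 0.934, with 2766 genes apart. Dusp6, a feedback target of MEK/ERK signalling, was at 9.22 CPM in it, against 9.87 CPM in LIM day 1, 78.2 CPM in LFAI day 2, and 51.7 and 58.1 CPM in the LFAI 35 h libraries. Results that rest on this library are given with and without it.

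Six3 and Six3os1 were read almost only in LIM in the set with both lines. Six3 had 6.88 (R1) and 6.00 CPM (CGR8) in LIM, 0 counts in all 4 LFAI libraries, and 0.184 and 0.133 CPM in L2i. The LIM libraries thus held 110 and 101 reads of Six3, against 4 and 2 in L2i, and LIM was 38.2-fold above L2i. A count of 0 allows up to 0.196 CPM in an LFAI library (3 counts, counting error only). With LFAI set to 3 counts per group, Six3 was 65.9-fold lower after 35 h in LFAI than in LIM and 66.9-fold lower after 4 days. With the counting error of both groups, the ratio of LFAI over LIM was at most 0.0188 and 0.0185 (95% counting intervals). Six3os1 was at 6.32 and 3.80 CPM in LIM and at 0 counts in every other library of the set. LIM was 61.7-fold above L2i set to 3 counts per group (95% counting interval from 49.6 up). No group overlapped LIM for either gene. In bulk RNA, a few cells with much of a transcript and many cells with little cannot be told apart.

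Pax6, a paired box factor of eye and forebrain, was also highest in LIM, but it was present in every medium. It had 57.7 and 25.9 CPM in LIM, 5.67 and 3.96 CPM after 35 h in LFAI, 1.51 and 0.588 CPM after 4 days, and 5.01 and 3.98 CPM in L2i. LIM was 9.25-fold above L2i, and the R1 library in LIM was 2.23 times the CGR8 library. Sox1, a SoxB1 factor and an early marker of neuroectoderm, had 8.19 and 3.32 CPM in LIM, 3.19 and 3.05 CPM after 35 h in LFAI, 0.440 and 0.392 CPM after 4 days, and 0.735 and 0.929 CPM in L2i. LIM was 6.91-fold above L2i, while CGR8 in LIM was only just above the 35 h LFAI libraries. Foxd4, a forkhead factor of early neuroectoderm, had 5.88 and 7.84 CPM in LIM, 0.130 and 0 CPM after 35 h in LFAI, 0.126 and 0.131 CPM after 4 days, and 0 and 0.0663 CPM in L2i. With 226 counts in LIM and 1 in L2i, its ratio was 254 (95% counting interval 45.1 to 10063).

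The factors of more specialised neural cells, Lmx1b and Pou4f2, were also highest in LIM. Lmx1b had 79.1 and 45.8 CPM in LIM, 0.130 and 0 CPM after 35 h in LFAI, 0.943 and 0.718 CPM after 4 days, and 4.45 and 2.79 CPM in L2i. It was 17.0-fold higher in LIM than in L2i and its ratio of LIM over LFAI 35 h was 954 (95% counting interval 264 to 7880, on 2 counts in LFAI). Pou4f2 had 12.0 and 8.97 CPM in LIM, 2.48 and 3.31 CPM after 35 h in LFAI, 0.189 and 0.131 CPM after 4 days, and 0.184 and 0 CPM in L2i. LIM was 93.1-fold above L2i on 343 counts against 4, and the 35 h LFAI libraries stood between them without overlap.

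The genes of the cytoskeleton and cell surface had the smallest differences between LIM and L2i among the 9 members above L2i. Nes had 127 and 96.4 CPM in LIM, 41.6 and 35.9 CPM after 35 h in LFAI, 577 and 366 CPM after 4 days, and 43.2 and 28.3 CPM in L2i. It was 3.11-fold above L2i in LIM, but its highest level was in LFAI at 4 days, 4.22-fold above LIM, so Nes was the 1 member not highest in LIM among the 9 that were above L2i there. Ncam1 had 86.6 and 71.4 CPM in LIM, 26.3 and 42.2 CPM after 35 h in LFAI, 2.45 and 3.53 CPM after 4 days, and 29.8 and 29.0 CPM in L2i, and LIM was 2.69-fold above L2i. Per kilobase of exon, the LIM level ran from Nes (17.4 ± 3.36 CPM per kb, SD, n = 2) through Lmx1b (12.8 ± 4.83), Ncam1 (9.11 ± 1.24), Pax6 (3.57 ± 1.92), Foxd4 (3.50 ± 0.706), Pou4f2 (3.27 ± 0.671), Sox1 (1.19 ± 0.712), Six3 (1.18 ± 0.115) and Six3os1 (0.426 ± 0.150) to Olig3 (0.207 ± 0.0492). The ranges over both lines overlapped between Nes and Lmx1b, Lmx1b and Ncam1, Pax6 and Foxd4, Foxd4 and Pou4f2, and Sox1 and Six3, so these neighbours are not ordered beyond their spread.

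Olig3 had the reverse pattern. It had 0.50 and 0.356 CPM in LIM, 0 and 0.0649 CPM after 35 h in LFAI, 0 CPM in both libraries after 4 days, and 5.51 and 3.78 CPM in L2i. The L2i libraries held 120 and 57 reads of it, and LIM was 10.7-fold lower. Olig3 was thus highest in L2i and low in the other 3 groups.

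**Figure D1:**
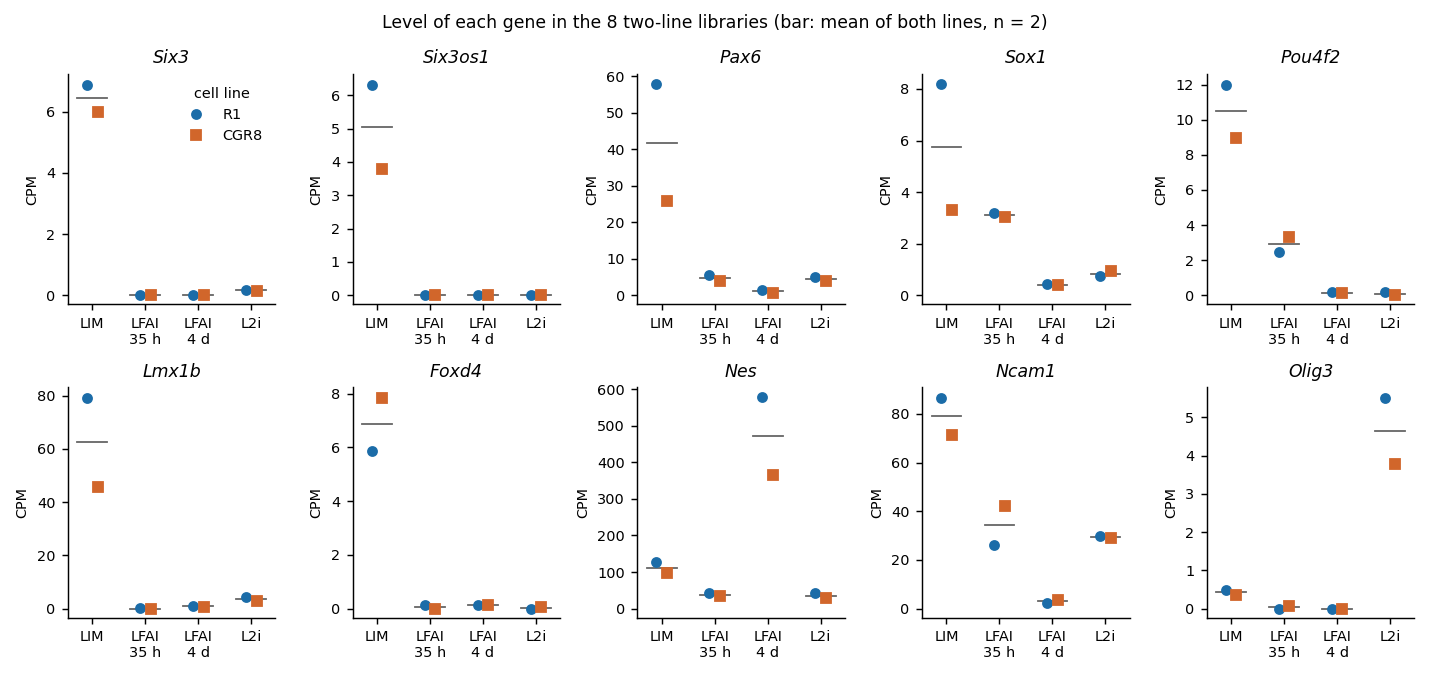
Level (CPM, vertical axis from 0) of each of the 10 genes in LIM, LFAI 35 h, LFAI 4 d and L2i; circles are R1, squares CGR8, and the bar is the mean of both lines (n = 2). LIM stands above the other media for 8 genes, Nes is highest in LFAI at 4 days (577 and 366 CPM) and Olig3 in L2i (5.51 and 3.78 CPM).

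In all, LIM was above L2i for 9 members and below it for 1, with no overlap between the libraries of the groups for any of them. Over the 15525 genes fitted, 31.0% were higher and 29.8% lower without overlap, and 11.3% were called higher and 7.81% lower by edgeR's quasi-likelihood test at an adjusted p under 0.05. Since the members were picked on this contrast, nothing is read from their count. Their median log2 difference was 3.65, against 0.01 over all genes. Leaving out 1 library kept every direction but moved some sizes: the log2 difference of LIM over L2i was 5.77 to 10.37 for Pou4f2 (without L2i CGR8 and R1), 6.53 to 9.83 for Foxd4 (without L2i R1 and CGR8), 2.0 to 3.3 for Sox1 and 2.53 to 3.68 for Pax6 (both without LIM R1 and CGR8). Six3, Six3os1 and Foxd4 passed the filter on low counts through LIM alone, since no other group held more than 4 reads of them in a library. Against LIM, all 10 members were lower without overlap after 35 h in LFAI (27.7% of all genes were), and 9 were lower and Nes higher after 4 days (34.9% lower and 33.6% higher over all genes). Within LIM, R1 was above CGR8 for 9 of 10 members, against 49.6% of all genes. In L2i, R1 was above for 7 members and below for 2 (49.5% of all genes above). In LFAI, R1 was above for 5 and below for 3 at 35 h (49.6%), and above for 5 and below for 2 at 4 days (49.4%). R1 had been in LIM for 4 passages and CGR8 for 6, and line and passages cannot be told apart.

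LFAI also removes CHIR99021 and adds IWP2, but it lacks the MEK inhibitor and adds FGF2 and Activin A, so its comparison with L2i changes all of these at once and they cannot be told apart. These comparisons were tested, although they share the L2i libraries with the contrast that chose the members. After 35 h in LFAI, Pou4f2 and Sox1 rose, Lmx1b and Olig3 fell, and 6 members did not pass the test (edgeR quasi-likelihood test, Benjamini-Hochberg adjustment over 15525 genes, of which 7.35% were called higher and 7.16% lower). The median log2 difference of the 10 was 0.1 (0.05 with genes at 0 counts set to their bound), against 0.0 over all genes. Pou4f2 rose 25.7-fold, on 89 counts against 4 in L2i (log2 4.69 ± 0.73 SE, adjusted p = 0.0041), in both lines. The log2 difference was 3.95 without L2i CGR8, which had 0 counts, and 8.52 without L2i R1. Sox1 rose 3.75-fold (log2 1.91 ± 0.53, adjusted p = 0.044), again in both lines, but the call was lost with only the 4 libraries compared in the fit (adjusted p = 0.051). The Sox1 call was also lost without either L2i library (adjusted p = 0.2 without R1 and 0.097 without CGR8), without either 35 h library (0.15 without R1 and 0.11 without CGR8) and without either 4 d library (0.065 each).

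Lmx1b went the other way from its level in LIM. It fell to 2 counts over both LFAI 35 h libraries, against 139 in L2i (log2 -5.66 ± 0.71, adjusted p = 0.0017). The ratio of L2i over LFAI was 58.0 (95% counting interval 15.8 to 484). Olig3 fell to 1 count, against 177 in L2i (log2 -6.86 ± 0.9, adjusted p = 0.0028), a ratio of L2i over LFAI of 148 (26.2 to 5868). Leaving out a single library moved these folds: without LFAI 35 h R1 and CGR8 in turn, the log2 difference of Lmx1b was -8.93 and -4.73 and that of Olig3 was -6.0 and -9.27, all called. Pax6 (log2 0.09 ± 0.46, adjusted p = 0.92), Nes (0.11 ± 0.27, adjusted p = 0.83) and Ncam1 (0.22 ± 0.24, adjusted p = 0.61) differed by less than the spread. Six3 had 0 counts against 6 in L2i (adjusted p = 0.078), Six3os1 had none in either group, and Foxd4 had 2 against 1, too few to show a difference at this depth.

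After 4 days in LFAI, Nes rose and Pax6, Lmx1b, Ncam1 and Olig3 fell (21.5% of all genes were called higher and 23.3% lower). The median log2 difference of the 10 was -1.54 (-0.87 with genes at 0 counts set to their bound), against 0.0 over all genes. Nes rose 13.1-fold (log2 3.72 ± 0.29, adjusted p = 3e-05), by 3.74 in R1 and 3.68 in CGR8 on the log2 scale. Ncam1 fell 9.83-fold (log2 -3.3 ± 0.29, adjusted p = 5e-05). Nestin and the cell adhesion molecule, both used as neural markers, therefore differed in opposite directions from L2i after 4 days. Pax6 fell 4.26-fold (log2 -2.09 ± 0.52, adjusted p = 0.011), but did not pass when L2i R1 was left out (adjusted p = 0.052) or when LFAI 4 d CGR8 was (0.079), and its log2 difference was -2.91 without LFAI 4 d R1. Lmx1b fell 4.37-fold (log2 -2.13 ± 0.46, edgeR adjusted p = 0.006). Olig3 had 0 counts against 177 (edgeR adjusted p = 0.00045). It was 50.0-fold lower with LFAI set to 3 counts, and its ratio was at most 0.0249 (95% counting interval). Six3 also passed as lower, on 0 counts against 6 (edgeR adjusted p = 0.035). It was 1.69-fold lower with LFAI set to 3 counts, but the 95% counting interval of the ratio reached 1.00. Six3 entered the fit through its reads in LIM alone and was below the filter with only the 4 libraries compared. It is therefore not counted as a fall. Its adjusted p was 0.056 with the cell line as a block, 0.064 with DESeq2, and from 0.059 to 0.1 without any one library of L2i, LFAI 4 d or LIM. Sox1 (log2 -0.98 ± 0.6, adjusted p = 0.22), Pou4f2 (5 counts against 4) and Foxd4 (4 against 1) did not pass.

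Between 35 h and 4 days in LFAI, Nes and Lmx1b rose and Pax6, Sox1, Pou4f2 and Ncam1 fell (17.7% of all genes called higher and 19.0% lower). The median log2 difference of the 10 was -1.09 (0.0 with genes at 0 counts set to their bound), against 0.01 over all genes. Sox1 fell 7.38-fold (log2 -2.88 ± 0.58, adjusted p = 0.0052) and Pou4f2 fell 17.3-fold (log2 -4.11 ± 0.7, adjusted p = 0.0025), and both had been called higher at 35 h than in L2i. Nes rose 12.2-fold (log2 3.61 ± 0.29, adjusted p = 6.5e-05). Ncam1 fell 11.4-fold (log2 -3.52 ± 0.29, adjusted p = 6.8e-05) and Pax6 fell 4.55-fold (log2 -2.18 ± 0.53, adjusted p = 0.012). The Pax6 call was lost without LFAI 4 d CGR8 (adjusted p = 0.08), and the log2 difference was -3.01 without LFAI 4 d R1. Lmx1b had 26 counts at 4 days against 2 at 35 h (log2 3.53 ± 0.88, adjusted p = 0.014). The counts give 12.8 times as much, with a 95% interval of 3.21 to 111 from counting. The call was lost without LFAI 4 d R1 (adjusted p = 0.062) or LFAI 35 h CGR8 (log2 2.61, adjusted p = 0.075), and the log2 difference was 6.78 without LFAI 35 h R1.

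The time course follows R1 cells as they leave L2i, with 1 library per point. Its libraries were not in the contrast between LIM and L2i that chose the members, although earlier results of them were known. By day 4 in LIM, 8 members were at least 2-fold higher than on day 0 and Olig3 was lower, out of the 9 with more than 3 counts in either library. Over the 14871 genes measured, 7.76% were at least 2-fold higher and 6.37% lower. These genes had 1 CPM or more in at least 2 libraries, a filter that Six3os1 and Foxd4, both among the 8, did not pass. The count of members and the share thus rest on sets filtered differently. On day 1 in LIM, 6 of the 8 members above the floor were already at least 2-fold higher and none lower, against 4.73% and 3.77% of all genes. Six3os1, which did not pass that filter, is among the 6.

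Pax6 had 1.1 CPM on day 0 and 7.42, 10.7, 16.0 and 18.1 CPM on days 1 to 4 in LIM, and was higher on each day than on the day before. Lmx1b had 1.17 CPM on day 0 and 14.7, 18.4, 31.5 and 33.3 CPM on days 1 to 4 in LIM, a ratio of 28.5 on day 4 (95% counting interval 17.3 to 50.3). Ncam1 had 23.2 CPM on day 0 and 82.1, 103, 114 and 120 CPM in LIM. All 3 were highest on day 4. Pou4f2 had 1.17 CPM on day 0 and 2.45, 3.49, 6.85 and 6.27 CPM in LIM. Sox1 had 3.95 CPM on day 0 and 8.92, 12.0, 10.7 and 9.52 CPM, and Nes had 46.6 CPM and then 152, 136, 159 and 151 CPM. In LIM, Sox1 was highest on day 2 and Nes on day 3. Olig3 had 2.34 CPM on day 0 and 1.42, 1.41, 1.22 and 0.982 CPM in LIM, a ratio of 0.420 on day 4 (95% counting interval 0.202 to 0.822).

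The 3 members read almost only in passaged LIM cells stayed at 17 counts or fewer in every library of the time course. Six3 had 3 counts on day 0 and 0, 3, 5 and 3 counts on days 1 to 4 in LIM. Foxd4 had 0 counts on day 0 and 0, 2, 1 and 9 in LIM. Six3os1 had 0 counts on day 0 and 9, 11, 17 and 13 in LIM. On day 4 it was 4.48-fold above day 0 set to 3 counts (95% counting interval from 3.15 up). On day 4 of the time course Six3 was at 0.227 CPM, against 6.88 CPM in the R1 library that had spent 4 passages in LIM, and Foxd4 was at 0.680 against 5.88 CPM. Pax6 was at 18.1 against 57.7 CPM. Those levels come from sets scaled apart, on another coating and sequencing protocol, so time in LIM and these differences cannot be told apart.

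In LFAI, Lmx1b and Ncam1 were low from day 2 on. Lmx1b had 0.385, 0.217 and 0.144 CPM on days 2 to 4 and Ncam1 13.4, 9.39 and 14.0 CPM, all below day 0. In the library labelled LFAI day 1, Lmx1b was at 13.7 and Ncam1 at 80.6 CPM, close to the 14.7 and 82.1 CPM of LIM day 1. None of the 8 members above the floor was 2-fold apart between LIM day 1 and that library (1.32% of all genes were higher and 1.47% lower). Pou4f2 had 3.88 CPM in the library labelled LFAI day 1 and 2.31, 2.09 and 1.59 CPM on days 2 to 4, and Nes had 137 CPM in it and 34.5, 94.5 and 167 CPM. Nes in LFAI was below day 0 on day 2 and 3.58 times day 0 on day 4. Sox1 had 10.2 CPM in the library labelled LFAI day 1 and 18.4, 17.7 and 24.7 CPM, above LIM on each of days 2 to 4. Pax6 had 6.88 CPM in it and 6.17, 6.79 and 9.45 CPM on days 2 to 4 in LFAI. On day 4 in LFAI, Pax6, Sox1 and Nes were at least 2-fold above day 0 and Lmx1b and Olig3 below it, out of 7 above the floor (15.1% of all genes were higher and 12.8% lower). On day 4, 6 members were at least 2-fold higher in LIM than in LFAI, namely Six3os1, Pou4f2, Lmx1b, Foxd4, Ncam1 and Olig3, and Sox1 was lower (12.2% and 13.4% of all genes), out of the 9 above the floor. Foxd4 had 9 counts in LIM against 3 in LFAI (ratio 3.14, 95% counting interval 0.784 to 18.0), so its counts do not show a difference. Six3os1 and Foxd4 were below the filter that set the genes of these shares.

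Slopes on day were fitted for the 7 members above 1 CPM in at least 2 libraries, which left out Six3, Six3os1 and Foxd4. In LIM no member had a slope that passed the test, where only 0.336% of all genes passed in each direction. The median slope of the 7 was 0.3 log2 per day, against -0.01 over all genes. Pax6 had the steepest, 0.66 ± 0.15 log2 per day (adjusted p = 0.084, unadjusted p = 0.0016), and with DESeq2 it passed (adjusted p = 0.001). Pax6 and Pou4f2 were the 2 members with an unadjusted p under 0.05. In LFAI, Sox1 rose by 0.49 ± 0.11 log2 per day (adjusted p = 0.0052), Olig3 fell by 1.25 ± 0.22 (0.0018), Lmx1b fell by 1.45 ± 0.48 (0.038) and Ncam1 fell by 0.62 ± 0.21 (0.039), where 19.2% of all genes rose and 20.4% fell. The median LFAI slope of the 7 was -0.03, against 0.0 over all genes. The calls on Lmx1b and Ncam1 were lost without any one LIM library (adjusted p from 0.051 to 0.085 for either gene), without LFAI day 3 (0.13 and 0.12) or LFAI day 4 (0.16 and 0.073), and that on Lmx1b also without LFAI day 2 (0.054).

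The slope in LIM minus that in LFAI was positive for Lmx1b (1.82 ± 0.39 log2 per day, adjusted p = 0.0058), Olig3 (1.0 ± 0.2, 0.0046), Ncam1 (0.92 ± 0.19, 0.0048) and Pou4f2 (0.44 ± 0.13, 0.026), and negative for Sox1 (-0.3 ± 0.09, 0.029), where 18.8% of all genes were called higher and 18.4% lower. The median difference over the 7 was 0.44, against 0.0 over all genes. Pax6 (0.31 ± 0.13, adjusted p = 0.096) and Nes (0.15 ± 0.15, 0.49) did not pass, although Pax6 passed without day 0 (adjusted p = 0.0025). Without the library labelled LFAI day 1 the same 5 genes were called in the same directions, at 2.33 ± 0.26 for Lmx1b, 0.98 ± 0.21 for Olig3, 1.02 ± 0.13 for Ncam1, 0.49 ± 0.1 for Pou4f2 and -0.3 ± 0.1 for Sox1 (20.0% of all genes higher and 19.1% lower), and the same 4 were called in the LFAI slope. The calls on Sox1 and Pou4f2 were each lost without LIM day 3 (adjusted p = 0.081 and 0.086), LIM day 4 (0.24 and 0.072), LFAI day 3 (0.055 and 0.077) or LFAI day 4 (0.051 and 0.17). A slope takes its error from the scatter of days about a straight line, since no day was replicated.

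**Figure D2:**
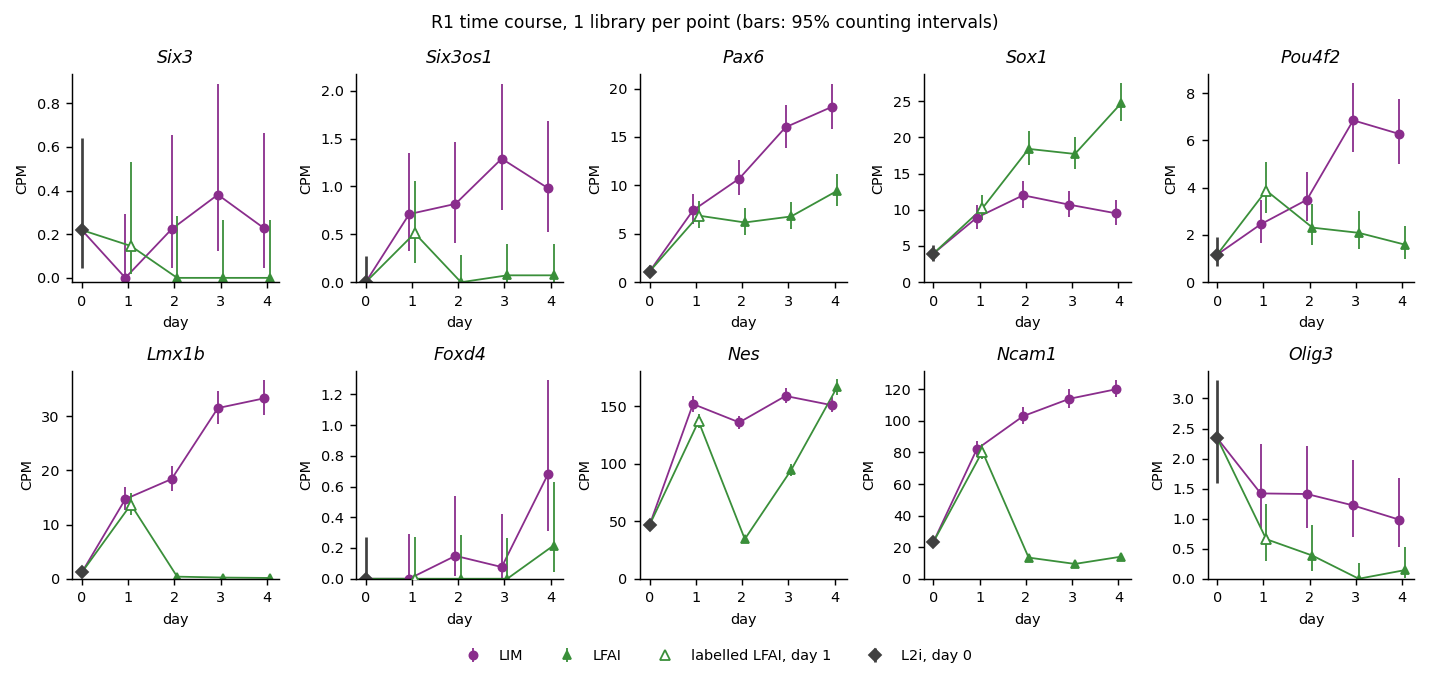
Level (CPM) by day for each gene in R1 cells in LIM (circles) and LFAI (triangles), from the shared L2i library of day 0 (diamond); 1 library per point, with 95% counting intervals, and an open triangle for the library labelled LFAI day 1. Lmx1b and Ncam1 stay high in LIM (33.3 and 120 CPM on day 4) and are low in LFAI from day 2, whereas Sox1 is highest in LFAI on day 4 (24.7 CPM).

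For Sox1 and Pax6, LFAI at 4 days against L2i differed between the sets. Sox1 on day 4 was 6.26 times its day 0 level in the time course (95% counting interval 4.69 to 8.51), whereas both lines of the other set were below L2i, by 0.61 (R1) and 1.03 (CGR8) on the log2 scale. Pax6 on day 4 was 8.61 times day 0 (5.04 to 15.8), whereas the other set was below L2i by 1.65 and 2.53. In R1 cells after 4 days in LFAI, Sox1 was at 24.7 CPM in the time course and 0.440 CPM in the other set. The difference between the sets was not tested, and coating, sequencing protocol and passages differ between them. Nes was higher and Lmx1b, Ncam1 and Olig3 were lower than L2i in both sets.

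Other genes of the neural plate were counted from lists chosen with earlier results of these data known. Of 25 factors of the anterior neural plate and forebrain, 17 were tested and 11 rose in LIM against L2i (Otx2, Hesx1, Lhx5, Fezf2, Zic2, Zic5, Sox3, Sox11, Pou3f1, Irx3 and Nkx2-1), while none fell, where 11.3% of all genes were called higher and 7.81% lower. Lhx5 and Nkx2-1 were at 0 counts in L2i, so they passed the filter through groups where they were higher. Fezf2 (log2 6.76) and Irx3 (5.82) averaged under 5 CPM in LIM and far less in L2i, so this holds for them too. The count of 11 is therefore a description. The median log2 difference of the 17 was 4.37, or 3.28 with genes at 0 counts set to their bound, against 0.01 over all genes. The list was not chosen independently of this contrast. It also holds genes that are not confined to the anterior neural plate, such as Otx2 and Sox2. Hesx1, a homeobox factor of the forebrain and pituitary, had 40.8 and 34.0 CPM in LIM and 2.57 and 0.929 CPM in L2i (log2 4.37 ± 0.49, edgeR adjusted p = 0.00089), and averaged 0.130 CPM after 35 h in LFAI and 0.0629 CPM after 4 days. Otx2, a factor of forebrain and midbrain and also of the primed epiblast, had 156 and 270 CPM in LIM and 12.1 and 7.30 CPM in L2i (log2 4.44 ± 0.37, adjusted p = 0.00025). In LFAI, Otx2 had means of 204 CPM at 35 h and 190 CPM at 4 days. Pou3f1 (log2 4.9 ± 0.56, adjusted p = 0.0009), Sox11 (4.79 ± 0.25, 4.3e-05) and Sox3 (2.58 ± 0.51, 0.009) also rose, and Pou3f1 averaged 166 CPM after 4 days in LFAI. In LFAI against L2i, the list had 5 higher and 1 lower of 17 at 35 h (7.35% and 7.16% of all genes) and 6 higher and 5 lower at 4 days (21.5% and 23.3%). The 6 were Otx2, Zic2, Zic5, Sox3, Sox11 and Pou3f1, all among the 11 higher in LIM. All of the 6 but Sox3 were also called higher at 35 h, so these rises were shared by LIM and LFAI. On day 4 of the time course 10 of its 16 measured genes were at least 2-fold higher in LIM than on day 0 and none lower (7.76% and 6.37% of all genes). In LFAI 8 were higher and 3 lower (15.1% and 12.8%).

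Factors of the midbrain, hindbrain and spinal cord moved in both directions. Of 24, 17 were tested in LIM against L2i, with a median log2 difference of -0.27. Of the 17, 3 were called higher and 5 lower, where 11.3% of all genes were called higher and 7.81% lower. En1, Pax2 and Pax8 rose, and Cdx1, Cdx2, Nkx1-2 and En2 were among those that fell. Pax2 (log2 5.19) averaged under 5 CPM in LIM and far less in L2i, so it passed the filter through groups where it was higher. Cdx1, a homeobox factor that activates Hox genes in the posterior body and a target of Wnt signals, had 0.0625 and 0.119 CPM in LIM and 43.3 and 65.9 CPM in L2i (log2 -9.11 ± 0.61, adjusted p = 0.00021). Nkx1-2, a homeobox factor of the posterior epiblast, had 0.313 and 0.237 CPM in LIM and 50.2 and 71.4 CPM in L2i (log2 -7.75 ± 0.42, adjusted p = 5.5e-05). En1, which marks the midbrain-hindbrain boundary as Lmx1b does, had 8.44 and 6.77 CPM in LIM and 1.1 and 0.332 CPM in L2i (log2 3.35 ± 0.7, adjusted p = 0.012). The summed level of the list was 27.7 to 48.9 CPM in LIM and 147 to 201 CPM in L2i. Nkx1-2 and Cdx1 were its highest genes in L2i and made up much of the sum there. After 4 days in LFAI the summed level was 6.20 to 8.17 CPM, with 3 genes higher and 11 lower than in L2i (21.5% and 23.3% of all genes).

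Genes of neural progenitor structure and signalling had 8 of 15 tested members higher and none lower in LIM than in L2i (median 2.44; 11.3% of all genes were called higher and 7.81% lower). They were Cdh2, Hes3, Prom1, Sox9, Nrcam, Ncan, Dll1 and Sfrp2. Sox9 was at 0 counts in L2i, so it passed the filter through groups where it was higher. Hes3 (log2 4.32) averaged under 5 CPM in LIM and far less in L2i, so this holds for Hes3 too. Dll1, a Notch ligand, had 34.3 and 30.3 CPM in LIM and 0.321 and 0.265 CPM in L2i (log2 6.73 ± 0.55, adjusted p = 0.00024). It also had 30.0 and 13.3 CPM after 35 h in LFAI (log2 6.15 ± 0.54 against L2i, edgeR adjusted p = 0.00039). After 4 days in LFAI it had 2.45 and 4.24 CPM. In the time course Dll1 was at 20.0 CPM on day 4 in LIM and 40.4 CPM on day 4 in LFAI. Cdh2, which encodes N-cadherin, had 52.4 and 25.5 CPM in LIM and 7.58 and 5.44 CPM in L2i (log2 2.57 ± 0.43, adjusted p = 0.0044). After 35 h in LFAI, 4 of the 15 were higher and 2 lower than in L2i (7.35% and 7.16% of all genes). After 4 days in LFAI, 7 of the 15 were higher and 3 lower than in L2i (21.5% and 23.3% of all genes). Prom1, a membrane protein of progenitors, averaged 28.3 CPM in LIM, 60.4 CPM after 4 days in LFAI and 5.11 CPM in L2i, and was at least 2-fold lower on day 4 in LIM than on day 0 of the time course. Of 21 paralogs of the members, 12 were tested, and Pax2, Pax8 and Sox3 rose while none fell (median 0.48, with 11.3% of all genes called higher and 7.81% lower). Sox2, the SoxB1 paralog of Sox1 that ES cells use, had 224 and 280 CPM in LIM and 304 and 322 CPM in L2i (adjusted p = 0.17).

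Markers of other cell types were measured beside the members, and their part in the results was not tested. Of 16 neuron genes, 12 were tested and 7 rose in LIM against L2i with none lower (median 1.71). Rbfox3 (log2 4.86) and Snap25 (4.33), among the 7, averaged under 5 CPM in LIM and far less in L2i. They passed the filter through groups where they were higher. Beside this and each list below, 11.3% of all genes were called higher and 7.81% lower in LIM against L2i. The summed level of the neuron genes was 520 to 619 CPM in LIM and 251 to 354 CPM in L2i. After 35 h in LFAI, 2 of the 12 (Stmn2 and Neurod1) were higher than in L2i and none lower (7.35% and 7.16% of all genes). After 4 days in LFAI, 6 of the 12 were higher and 1 lower than in L2i (21.5% and 23.3% of all genes). Stmn2 and Tubb3 made up most of the sum. Stmn2 had 342 and 297 CPM in LIM and 101 and 110 CPM in L2i (log2 1.59 ± 0.2, adjusted p = 0.0015). It had 412 and 334 CPM after 35 h in LFAI (log2 1.82 ± 0.21 against L2i, edgeR adjusted p = 0.0011). Neurod1, a proneural bHLH factor, had 22.2 and 9.97 CPM in LIM and 0.872 and 1.13 CPM in L2i (log2 4.01 ± 0.47, adjusted p = 0.00099). It had 8.80 and 12.6 CPM after 35 h in LFAI (log2 3.43 ± 0.46 against L2i, edgeR adjusted p = 0.0022). Only 5 of the 16 averaged 5 CPM or more in LIM, and Neurod4 was at 0 counts there. ES cell markers Nanog, Esrrb and Dppa5a fell in LIM and none rose. Among mesoderm and streak markers Eomes and Hand1 rose and T fell, with sums of 15.9 to 20.5 CPM in LIM and 19.1 to 21.4 CPM in L2i. Hand1 and Sox10 were at 0 counts in L2i, so they passed the filter through groups where they were higher. Endoderm markers had no call among 3 tested, with sums of 7.24 to 8.88 CPM in LIM and 1.59 to 2.71 CPM in L2i, and Ttr at 0 counts in both. Surface ectoderm and neural crest markers summed to 49.4 to 52.5 CPM in LIM and 50.2 to 51.1 CPM in L2i, and Sox10 rose. Trophoblast markers summed to 64.1 to 67.4 CPM in LIM and 109 to 114 CPM in L2i, with Ascl2 and Hand1 higher and Cdx2 and Tfap2c lower. Fibroblast markers summed to 12.8 to 28 CPM in LIM and 7.99 to 8.76 CPM in L2i, with Thy1 and Col1a1 higher.

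**Figure D3:**
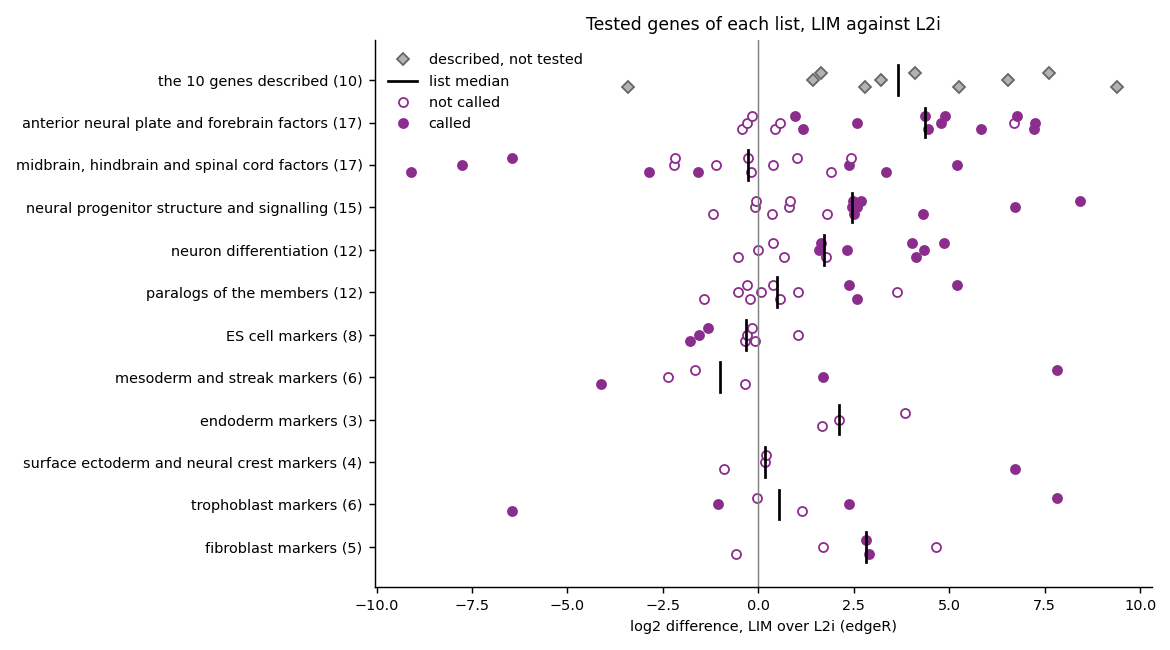
Fitted log2 difference of LIM over L2i (edgeR, horizontal axis) for the tested genes of each list, with the number tested in brackets; filled circles passed at an adjusted p under 0.05, open ones did not, diamonds are the 10 genes described, which were not tested here, and the line is the list median. The anterior list (median 4.37) lies mostly right of 0 and the midbrain, hindbrain and spinal cord list (median -0.27) on both sides; fitted values of genes at 0 counts in a group depend on the prior count.

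The genes whose pattern was most like that of a member were found by Pearson correlation of log2 CPM over 8 libraries, those with both lines, among 11138 named genes with a mean of 5 CPM or more in some group. With 4 groups of 2 libraries, such a correlation mostly restates the order of the groups, and the time course values (9 libraries) are given second. For Six3 they were Six3os1 (0.977 and 0.567), Hesx1 (0.971 and 0.679) and Cyp26a1 (0.968 and 0.00721), which encodes an enzyme that degrades retinoic acid. Six3 had at most 5 counts in any time course library and Cyp26a1 at most 0.227 CPM. The second values of Six3 thus rest on counts near the floor and show neither likeness nor its absence. Six3 and Six3os1 may also share reads. Cyp26a1 averaged 10.0 ± 8.85 CPM in LIM (SD, n = 2), 0 CPM in LFAI at 35 h and 4 days, and 0.0332 ± 0.0469 CPM in L2i. For Pax6 they were Cngb1 (0.975 and 0.322), Arhgdib (0.972 and -0.448) and Large2 (0.971 and 0.665). For Sox1 they were Rab30 (0.983 and -0.415), Hdac6 (0.976 and -0.0513) and Chd8 (0.976 and 0.331), so the likeness to Pax6 and Sox1 was weak or of the other sign in the time course for all but Large2. For Olig3 they were Aqp3 (0.989 and 0.865), an aquaporin, Snx1 (0.989 and 0.906) and Csrnp2 (0.979 and 0.803). Aqp3 averaged 15.1 ± 4.82 CPM in LIM, 1.17 ± 0.916 CPM after 35 h in LFAI, 0.670 ± 0.209 CPM after 4 days, and 199 ± 46.1 CPM in L2i. In the time course Aqp3 was at 67.0 CPM on day 4 in LIM and 92.7 CPM on day 0, while Hesx1 was at 9.37 CPM on day 4 in LIM and 0.146 CPM on day 0.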

How the data were processed

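Polyadenylated RNA of mouse ES cells was measured in 17 libraries. Per the labels' protocols, TruSeq Stranded mRNA libraries were sequenced on a HiSeq2500. Per the submitters' processing notes, HISAT2 2.0.4, HTSeq 0.6.1, DESeq2 1.10.1 and the builds GRCm38 and mm10 were used; the strand setting and annotation release of the counting are not given in the sources used here. The authors deposited raw counts, whole reads for each Ensembl gene. The 5 summary entries of each library that name no gene were left out of library sizes and tests; with them, 47.7 to 51.9% of reads were in no gene. Of 47729 genes, 47224 (98.94%) matched GENCODE M21, which gave names and coordinates. No libraries were identical.

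For both lines, all 8 libraries entered a single fit in edgeR 4.0.16 (R 4.3.3; quasi-likelihood test, TMM scaling, filterByExpr, 15525 genes, 4 residual degrees of freedom, no block). The 9 time course libraries were fitted apart by slopes on day in LIM and in LFAI from a shared day 0 (14871 genes with 1 CPM in at least 2 libraries, 6 residual degrees of freedom). Two-sided p-values were adjusted by Benjamini-Hochberg over all genes, with calls made at an adjusted p under 0.05; both scripts were tested on simulated data. Log2 CPM used a prior count of 2. CPM are counts over TMM-scaled library sizes; errors are SD over both lines or SE of the fit, and 95% intervals and floors of 3 counts cover counting error only. The same lines are in every group, so the labels pair the samples by line; deviations of same-line libraries from their group means correlated at 0.04 to 0.4 between groups, and line was the block in an alternative. Alternatives were DESeq2 size factors, no filter, the DESeq2 1.42.0 Wald test, the block, only the libraries compared, and each library left out in turn.

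The members and gene lists were chosen with earlier results of these data known. All 10 members are named; from each list, up to 5 genes of the largest LIM against L2i difference with a mean of 5 CPM or more, besides those that account for a list, and the 3 most like genes of Six3, Pax6, Sox1 and Olig3. Foxd4's promoter and the genes that mark the library labelled LFAI day 1 were added after their values were seen. P-values of the set with both lines measure the spread between lines, since nothing says that cultures were repeated within a line. Passages differ between the lines too and are part of that spread. P-values of the slopes come from R1 alone and measure the scatter of unreplicated days about a straight line.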

Additional observations from a re-analysis of the deposited data

Results flagged for a closer look

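In the time course, the slope per day differed between LIM and LFAI (edgeR interaction) for Sox1 (-0.3 log2 per day), Pou4f2 (0.44), Lmx1b (1.82), Ncam1 (0.92) and Olig3 (1.0). Without the library labelled LFAI day 1, which resembles LIM, the same 5 were called.

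R1 and CGR8 differed in opposite directions in 4 cases, none of them tested as a difference. At 35 h in LFAI against L2i, Pax6 differed by 0.18 in R1 and -0.01 in CGR8 on the log2 scale, Nes by -0.06 in R1 and 0.34 in CGR8, and Ncam1 by -0.18 in R1 and 0.54 in CGR8. Foxd4 at 4 days against 35 h in LFAI differed by -0.03 in R1 and 1.05 in CGR8, on 4 counts against 2.

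For LFAI at 4 days against L2i, the sets went opposite ways, which was not tested. Pax6 was higher by 2.95 (log2) in the time course, against -1.65 in R1 and -2.53 in CGR8 of the other set. Sox1 was higher by 2.6, against -0.61 and -1.03. Coating, sequencing protocol and passages differ between the sets and cannot be told apart.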

How the results depend on the processing

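Directions in the comparisons with LIM (9 members above L2i, 0 above LIM after 35 h in LFAI and 1 after 4 days) were the same under every alternative run. With only the 4 libraries compared, 1 member was called higher after 35 h in LFAI against L2i. In the LIM slope, 1 member (Pax6) was called higher with no filter on low counts and 1 with DESeq2, and in the LFAI slope 2 were with DESeq2, Pax6 (0.36 log2 per day, adjusted p = 0.043) beside Sox1. With the cell line as a replicate block, 4 members were called lower after 4 days in LFAI against L2i, against 5 without, since Six3 was lost; the block changed no other call. With each library left out in turn, members called higher numbered 1 to 2 (35 h against L2i) and 1 to 2 (4 d against 35 h), and 3 to 5 for the slope difference. Those called lower numbered 3 to 5 (4 d against L2i), 3 to 4 (4 d against 35 h), 1 to 3 (LFAI slope) and 0 to 1 (slope difference). Uncalled values that changed sign when a library was left out were, for 35 h against L2i, Pax6 (-0.18 to 0.34), Foxd4 (-2.23 to 3.29), Nes (-0.13 to 0.47) and Ncam1 (-0.15 to 0.53). The others were Pou4f2 (-0.2 to 4.39, 4 d against L2i), Foxd4 (-0.02 to 4.15, 4 d against 35 h), and the LFAI slopes of Pou4f2 (-0.2 to 0.13) and Nes (-0.08 to 0.24). The cause of these changes was not tested. The time course held a single line, so it had no line block. Counts under 10 limit Six3, Six3os1 and Foxd4 outside LIM in the set with both lines. They also limit Pou4f2 in L2i and in LFAI at 4 days, Lmx1b in LFAI at 35 h, and Olig3 in LIM and LFAI. In LFAI at 4 days they limit Sox1 in both lines and Pax6 in CGR8.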
